A study of Mus musculus with 6 samples.

Results

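The Hippo pathway coactivators YAP (*Yap1*) and TAZ (*Wwtr1*) and 8 genes known as YAP targets (*Lats2*, *Amotl2*, *Nuak2*, *Cyr61*, *Crim1*, *Dock5*, *Asap1* and *Gadd45a*) were followed in single cells of the mouse small-intestinal crypt. These 10 genes are chosen by name, from 19178 genes counted, and all 10 were present in the count tables. They were read in cells, taken as barcodes in which 300 or more genes were detected and mitochondrial genes made up no more than 25% of counts, which kept 4890 of 13191 barcodes (37.1%). The cells came from untreated C57BL6 mice aged 10 weeks, either with an epithelial deletion of *Ptger4* (knockout, 2438 kept cells) or with the floxed gene intact (flox, 2452 kept cells). *Ptger4* encodes EP4, a receptor for prostaglandin E2 that raises cAMP. Each genotype was sampled in 3 Drop-seq collections from 2 biological replicates, and from the sample codes collections 1 and 2 were read as biological replicate 1 and collection 3 as biological replicate 2. Drop-seq captures single cells in droplets and tags each messenger RNA with a cell barcode and a molecular identifier (UMI), so that a count is a UMI. What drove the deletion, which exons it removed and how many animals made up a replicate are not stated in the labels.

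In these cells *Cyr61* was highest in goblet-like and intestinal stem-like cells, and *Gadd45a* in enteroendocrine-like and enterocyte-like cells. *Yap1* was counted in every epithelial class and in no immune cell, whereas *Wwtr1* gave 4 counts in all. *Nuak2*, *Dock5* and *Gadd45a* were lower in stem-like cells than in the other epithelial cells in 6 of 6 collections. Between knockout and flox, 0 of the 8 members that could be tested passed the test.

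YAP and TAZ carry no DNA-binding domain and act on transcription through TEAD proteins. The Hippo kinases MST and LATS phosphorylate both coactivators, which holds them in the cytoplasm and marks them for degradation. Several targets act back on the pathway, since LATS2 and AMOTL2 restrain YAP and NUAK2 is a kinase known to sustain it. In the intestinal epithelium YAP is known for its part in regeneration after injury, and protein kinase A, which cAMP activates, is known to act on LATS kinases.

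The core bases bound by TEAD proteins, CATTCC, stood in the promoter window of 6 of the 7 members with an entry in the RefSeq table (*Yap1*, *Wwtr1*, *Cyr61*, *Crim1*, *Amotl2* and *Lats2*, but not *Gadd45a*). A window runs from 250 bases before a gene's start to 50 bases after it. Over all 32851 windows searched, 14.7% held CATTCC on either strand. A match describes the letters in the window and shows no binding. The matches of 4 members are shown, each with 20 bases on both sides, to let their surroundings be compared. They are written 5′ to 3′ along the gene's strand from RefSeq (GRCm38.p6), and capitals mark CATTCC or GGAATG, its complement on the other strand.
Yap1, chr9:8004712-8004757, minus strand: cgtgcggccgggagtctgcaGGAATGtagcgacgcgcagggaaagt
Wwtr1, chr3:57576021-57576066, minus strand: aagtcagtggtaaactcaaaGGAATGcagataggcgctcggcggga
Cyr61, chr3:145650063-145650108, minus strand: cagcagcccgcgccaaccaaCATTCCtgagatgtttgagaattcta
Crim1, chr17:78200149-78200194, plus strand: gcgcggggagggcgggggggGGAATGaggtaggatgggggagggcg

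The first base of the match lies 141 bases before the start in *Yap1*, 103 in *Cyr61* and 79 in *Crim1*. *Wwtr1* has 2 listed starts, and its match lies 170 bases before the one and at position -136 from the other. The matches of *Amotl2* and *Lats2* lie in or at the edge of annotated exons and are not printed. The motifs TGACG and TGANTCA were also searched on both strands and counted separately, so that a base could count in more than 1. TGACG, the core bound by cAMP-responsive factors, was in the windows of 2 members (*Cyr61* and *Lats2*) and in 20.8% of all windows. TGANTCA, the AP-1 site, was in none of the 9 member windows and in 7.81% of all windows. The upstream sequences of the members with the most counts, *Cyr61* and *Gadd45a*, show the contrast between a window with matches and one without. In *Cyr61* the capitals mark CATTCC and, at position -58 from the start, CGTCA, the complement of TGACG.
Cyr61, chr3:145649986-145650235, minus strand: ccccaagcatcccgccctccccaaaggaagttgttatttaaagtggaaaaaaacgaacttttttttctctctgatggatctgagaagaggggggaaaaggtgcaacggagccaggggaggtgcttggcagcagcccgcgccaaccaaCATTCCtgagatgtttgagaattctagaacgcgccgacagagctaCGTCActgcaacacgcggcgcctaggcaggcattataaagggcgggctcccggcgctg
Gadd45a, chr6:67037458-67037657, minus strand: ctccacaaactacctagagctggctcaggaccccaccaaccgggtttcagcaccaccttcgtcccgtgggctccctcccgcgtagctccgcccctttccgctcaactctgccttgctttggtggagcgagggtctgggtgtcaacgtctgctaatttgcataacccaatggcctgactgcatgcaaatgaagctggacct

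Total counts per collection ranged from 1228337 to 3146909, and kept cells from 473 to 1053 with median counts of 1070 to 1471.5. *Ptger4* was itself at 17.4, 19.1 and 24.5 CPM (counts per 1000000 counts) in the 3 knockout collections, in their order, and at 11.9, 13.6 and 15.1 CPM in flox (edgeR log2 fold change 0.69, SE 0.28, adjusted p = 0.9996). Because the assay reads the 3′ end, which the deletion need not remove, these values check neither the labels nor the deletion. *Xist*, the RNA of the inactive X chromosome of females, gave 1584 counts in knockout 3, 1457 in flox 3 and no more than 11 in any other collection, so that sex goes with the biological replicate in both genotypes. Kept cell barcodes were shared within knockout 1, flox 1 and flox 2 (19 to 26 per pair) and within knockout 2, knockout 3 and flox 3 (8 to 17 per pair), and 0 were shared between these sets. Clustering gave 16 clusters, of which 12 were named in 9 classes from marker genes and 4, with 34.3% of the cells, were left unnamed. Marker support was uneven in the stem-like class. Of 18 measured stem markers 13 were enriched in cluster 2 but only 4 in cluster 4, which held 437 of the 979 stem-like cells. The class held 654 cells at Leiden resolution 0.6 and 439 at 1.5, so its bounds depended on the clustering. The 389 cells of the T or NK-like and B or plasma-like classes are called immune and the other 4501 epithelial. The marker lists of fibroblasts, endothelium and muscle summed to at most 27.9, 6.61 and 1.41 CPM in any collection, with no count of *Col1a2*, *Dcn*, *Cdh5*, *Kdr*, *Acta2* or *Des*. The summed enterocyte list was 8989.6 to 11310 CPM in the knockout collections and 7542.2 to 8341.3 CPM in flox, and its part in the genotype values below was not tested.

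Levels by cell class are counts summed over the cells of a class, in CPM of that class's total, with exact 95% Poisson intervals that cover counting error only. The classes come from clustering these same cells, with *Cyr61* among the genes used and the other 9 members not, so levels between classes are descriptions with no test. For each class the number of collections in which it lay above or below the remaining epithelial cells is given in place of one. Levels are compared within a gene and never between genes.

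*Yap1*, on chromosome 9 (7931999 to 8004596, GRCm38), had 304 counts in 263 cells. All of them were in epithelial cells, where its level was 27.5 CPM (24.5 to 30.8). Immune cells had 0 *Yap1* counts in all 6 collections, and 3 counts there would be 7.93 CPM, so *Yap1* was at least 3.46-fold higher in epithelial cells, with the 3-count floor taken over all immune cells together. The classes with more than 10 *Yap1* counts lay close together, at 35.7 CPM in cycling-like, 34.4 in stem-like, 26.9 in goblet-like and 21.8 CPM in enterocyte-like cells. Each of these neighbours had overlapping counting intervals, and stem-like cells stood above the other epithelial cells in 5 of 6 collections (ratio 1.34). The highest value, 38.5 CPM in tuft-like cells, rested on 5 counts. In stem-like cells the collections read 32.1, 33.6 and 33.0 CPM in knockout 1 to 3 and 39.8, 56.0 and 13.2 CPM in flox 1 to 3. The knockout collections thus lay between the lowest and the highest flox collection.

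*Wwtr1*, on chromosome 3 (57455649 to 57575910), was near the limit of detection. Its 4 counts were in 4 cells of stem-like cluster 2, the deeper of the 2 stem-like clusters, led by *Ifitm3*, *Olfm4*, *Ascl2* and *Cdca7*. They came from knockout 2, flox 1 and flox 2, and the other 3 collections had 0. The overall level was 0.350 CPM (0.0953 to 0.895), against 0.262 CPM for 3 counts. In enterocyte-like and goblet-like cells 0 counts were found, where 3 counts would be 1.93 and 1.30 CPM. At this depth neither a genotype difference nor the absence of *Wwtr1* from other classes could be shown.

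**Figure D1:**
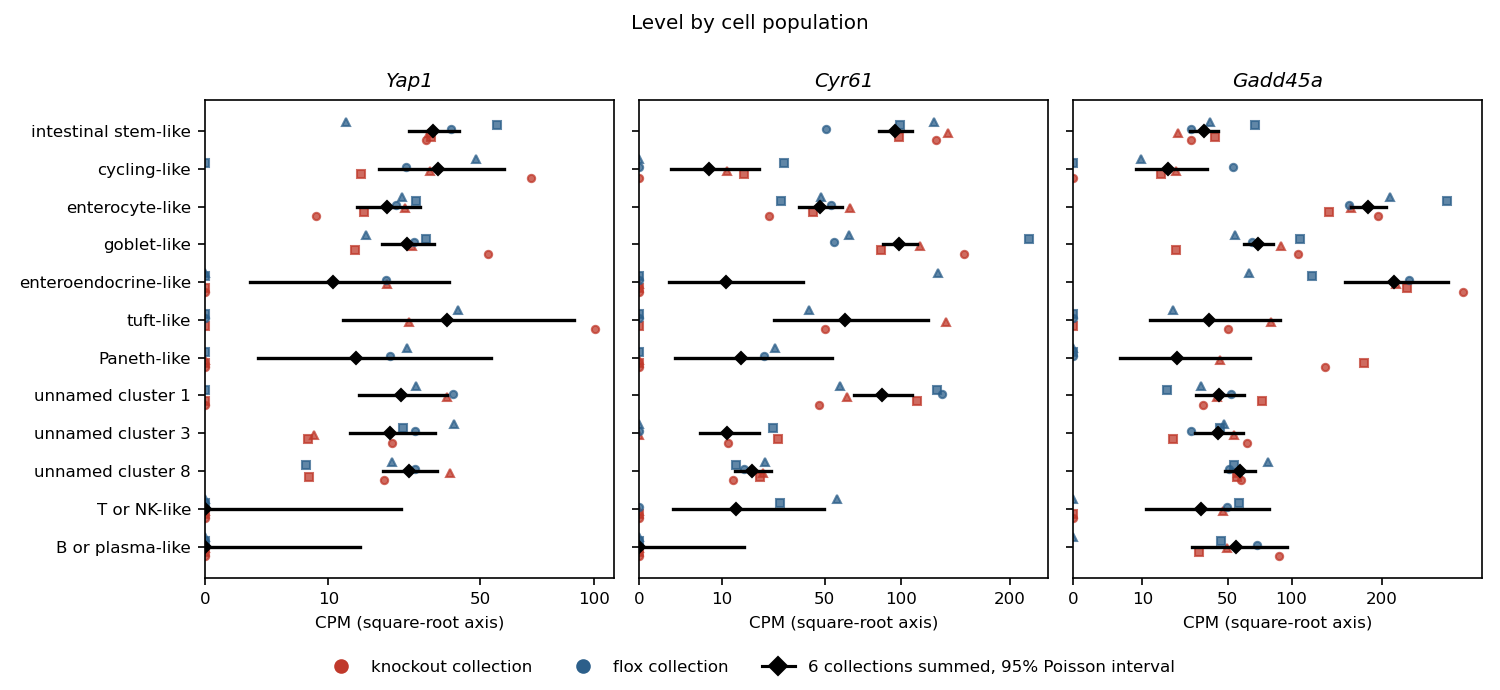
Levels of *Yap1*, *Cyr61* and *Gadd45a* (CPM, square-root axis) in 9 classes and 3 unnamed clusters. Diamonds with bars are the 6 collections summed with 95% Poisson intervals, and small circles, squares and triangles are collections 1, 2 and 3 (red knockout, blue flox). *Yap1* stands at 0 in both immune classes, *Cyr61* peaks in goblet-like (98.6 CPM) and stem-like cells (95.3 CPM), and *Gadd45a* in enteroendocrine-like (217 CPM) and enterocyte-like cells (182 CPM).

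The kinase gene *Lats2* (chromosome 14, 57689662 to 57758388), whose product phosphorylates YAP and TAZ, had 25 counts in 24 cells. Its level was 25.8 CPM (9.46 to 56.1) in B or plasma-like cells, from 6 counts, and 1.63 CPM (0.965 to 2.57) in all epithelial cells. Only 3 of 6 collections stood above their epithelial cells in this class. Tuft-like, Paneth-like and T or NK-like cells had 7.70, 7.49 and 6.87 CPM, from 1 count each. Enterocyte-like cells had 4.49 CPM, from 7 counts, and lay above the other epithelial cells in 4 of 6 collections. *Lats2* shares 2955 exon bases with *Gm49361* on the same strand, and how the authors' counting split such reads is not stated in the labels.

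*Amotl2* (chromosome 9, 102716672 to 102733418) encodes angiomotin-like 2, a junction protein that binds YAP. It had 126 counts, 0 of them in immune cells. The level was 22.5 CPM (15.7 to 31.3) in enterocyte-like cells and 9.58 CPM in the other epithelial cells, a ratio of 2.35 that held in 4 of 6 collections. Knockout 1 to 3 read 16.2, 11.0 and 32.3 CPM in this class and flox 1 to 3 read 18.7, 0 and 35.2 CPM. Collection 3 was high and collection 2 low in both genotypes. *Amotl2* was 1 count, or 1.13 CPM (0.0286 to 6.29), in the unnamed cluster 3, whose leading genes were *Reg3g*, *Akr1c19* and *Reg3b*, against 12.3 CPM in the other epithelial cells.

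*Nuak2* (chromosome 1, 132316126 to 132333488), the YAP-sustaining kinase, had 313 counts. Stem-like cells had 14.9 CPM (10.4 to 20.6) against 31.2 CPM in the other epithelial cells, and were lower in 6 of 6 collections. Goblet-like cells had 40.4 CPM (32.6 to 49.5) and were higher in 5 of 6. Within the goblet-like class the level was 50.7 CPM in cluster 7, led by *Zg16*, *Ccl6* and *Tff3*, and 36.0 CPM in cluster 5, led by *Muc2*, *Clca3* and *Agr2*. Enteroendocrine-like cells had 75.8 CPM (41.4 to 127) from 14 counts, which were not spread evenly over the collections. Knockout 1 to 3 read 90.9, 182 and 87.3 CPM there and flox 1 to 3 read 21.6, 0 and 0 CPM. These values rested on 2, 7 and 4 counts in knockout and 1, 0 and 0 in flox. This class held 7 to 23 cells per collection and was not tested, and the share of all genes with this order was not computed in it.

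*Cyr61* (also called *Ccn1*, chromosome 3, 145646976 to 145649981), which encodes a secreted matrix protein and is a much used readout of YAP, had 672 counts in 439 cells. Goblet-like cells had 98.6 CPM (86.2 to 112) and stem-like cells 95.3 CPM (83.4 to 108), each above the other epithelial cells in 6 of 6 collections. The level differed between clusters of 1 class. It was 115 CPM (100.4 to 132) in stem-like cluster 2 and 27.3 CPM (15.3 to 45.1) in stem-like cluster 4, which was led by *Olfm4*, *Snhg4* and *Snhg3* and had median counts of 1016 against 2302. Cluster 4 had weak marker support, with 4 of 18 stem markers enriched against 13 in cluster 2. In goblet-like cells the *Cyr61* level was 162 CPM (134 to 195) in cluster 7 and 71.3 CPM (58.9 to 85.6) in cluster 5. Cluster 7 read 199, 143 and 185 CPM in knockout 1 to 3 and 72.5, 286 and 154 CPM in flox 1 to 3, all above the other epithelial cells of the same collection.

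Enterocyte-like cells had 47.5 CPM (37.3 to 59.6) of *Cyr61*. This interval did not overlap that of the next lower population, unnamed cluster 8 (13.3 to 25.3). It did overlap the wide intervals of Paneth-like, T or NK-like and enteroendocrine-like cells, which rested on 2 counts each. Low epithelial values were 7.13 CPM in cycling-like cells (3 counts), 10.8 CPM in enteroendocrine-like and 14.98 CPM in Paneth-like cells (2 counts each), 11.3 CPM in unnamed cluster 3 and 18.6 CPM in unnamed cluster 8, the last led by *Gsdmc4* and *Gsdmc2* with the highest median depth of any cluster, 4730 counts. The cycling-like cells and both unnamed clusters were each below the other epithelial cells in 6 of 6 collections. The unnamed cluster 1, led by small and noncoding RNAs such as *Gm26917* and *Rn7sk*, had 85.6 CPM. Immune cells had 5.29 CPM from 2 counts. The level in cycling-like cells depended on the clustering, at 20.9 CPM with Leiden resolution 1.5 and 24.5 CPM with the listed genes left out of it, and the stem-like level was 142 CPM at resolution 1.5.

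*Crim1* (chromosome 17, 78200248 to 78376592), encoding a transmembrane protein with cysteine-rich repeats that binds bone morphogenetic proteins, had 218 counts. Its level was 31.5 CPM (23.3 to 41.6) in enterocyte-like cells, 19.9 in stem-like and 19.1 CPM in goblet-like cells. Enterocyte-like cells were above the other epithelial cells in 5 of 6 collections. In enterocyte-like cluster 6, which carried the ileal bile acid genes *Fabp6*, *Slc51a* and *Slc10a2*, it was 36.8 CPM and above them in 6 of 6. In cluster 9, with the lipid-handling genes *Fabp1*, *Apoa4* and *Apoa1*, it was 25.6 CPM and above them in 3 of 6. *Crim1* was 0 in enteroendocrine-like, Paneth-like and T or NK-like cells, where 3 counts would be 16.2, 22.5 and 20.6 CPM.

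*Dock5* (chromosome 14, 67752135 to 67933442), an activator of the small GTPase Rac, had 258 counts. It was 10.4 CPM (6.70 to 15.3) in stem-like cells against 25.9 CPM in the other epithelial cells, lower in 6 of 6 collections. Enterocyte-like cells had 38.5 CPM (29.4 to 49.6) and were higher in 5 of 6. The values of stem-like cells were 6.41, 5.603 and 9.90 CPM in knockout 1 to 3 and 12.0, 12.9 and 13.2 CPM in flox 1 to 3. All knockout collections were below all flox collections, as were 6.15% of the genes tested in this class (2.85% in the opposite order), but the values rested on 25 counts, too few to enter the genotype test. T or NK-like cells had 48.1 CPM from 7 counts (19.3 to 99.1), of which knockout 2, flox 1 and flox 2 held all.

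*Asap1* (chromosome 15, 64086857 to 64382919), which switches off Arf GTPases, had 98 counts. Of these, 15 were in B or plasma-like cells, a level of 64.5 CPM (36.1 to 106) against 7.23 CPM (5.74 to 9.003) in epithelial cells. The class was above the epithelial cells in 5 of 6 collections, flox 3 with its 10 cells of this class being the exception at 0. Epithelial classes with at least 10 *Asap1* counts differed little, with 6.63 CPM in stem-like, 6.42 in enterocyte-like and 6.08 CPM in goblet-like cells.

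*Gadd45a* (chromosome 6, 67035096 to 67037457), an inhibitor of growth induced by DNA damage and other stress, was the member with the most counts, 810 in 591 cells. Enteroendocrine-like cells had 217 CPM (155 to 295) and enterocyte-like cells 182 CPM (162 to 205), against 53.5 CPM in the epithelial cells outside the enterocyte-like class. Enterocyte-like cells were higher in 6 of 6 collections (ratio 3.41) and enteroendocrine-like cells in 5 of 6. Both enterocyte-like clusters shared this, at 147 CPM in cluster 6 and 221 CPM in cluster 9. Stem-like cells had 35.6 CPM (28.5 to 44.0) and cycling-like cells 19.0 CPM (8.21 to 37.5), both below the other epithelial cells in 6 of 6 collections. With Leiden resolution 1.5 the cycling-like level was 47.4 CPM. *Gadd45a* shares 337 exon bases with *E230016M11Rik* on the opposite strand, and whether the counting used strand is not stated in the labels.

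**Figure D2:**
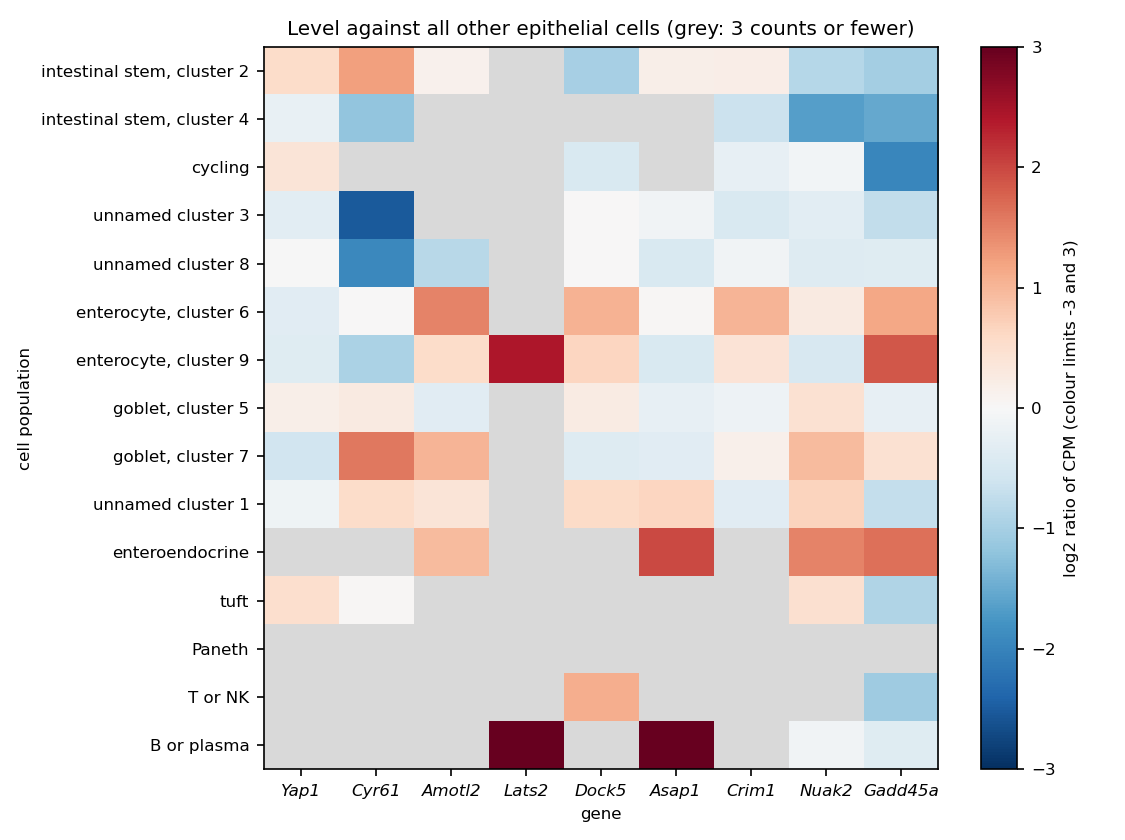
Log2 ratio of each gene's CPM in a population to its CPM in all other epithelial cells, over the 6 collections summed. Red is higher, blue lower, and grey fields hold 3 counts or fewer. *Cyr61* is high in stem-like cluster 2 and goblet-like cluster 7 and low in unnamed clusters 3 and 8, whereas *Gadd45a* is high in both enterocyte-like clusters and low in both stem-like clusters and in cycling-like cells.

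The members were therefore not ordered alike over the classes. *Cyr61* was above the other epithelial cells in stem-like cells in 6 of 6 collections, where *Gadd45a*, *Nuak2* and *Dock5* were below them in 6 of 6. *Lats2*, *Amotl2*, *Nuak2*, *Crim1*, *Dock5* and *Gadd45a* had higher values in enterocyte-like than in stem-like cells. *Yap1* was above the other epithelial cells in 5 of 6 collections in stem-like cells and below them in 4 of 6 in enterocyte-like cells.

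Few single cells carried a count of any of these genes. After thinning every cell to 500 UMIs, *Yap1* was found in 1.43% of epithelial cells (95% Clopper-Pearson interval 1.09 to 1.83) and in 0 of 330 immune cells, which allows a share of up to 0.909%. The Clopper-Pearson upper limit for these immune cells was 1.11%, which reaches the epithelial interval. Thinning left out 228 epithelial and 59 immune cells. Unthinned, 5.38% of kept cells had a UMI of *Yap1*, 8.98% of *Cyr61* and 12.1% of *Gadd45a*, at median counts of 1154 to 1495 in epithelial and 650.5 to 845.5 in immune cells over the collections. *Cyr61* was found in 5.75% of stem-like (4.35 to 7.44), 4.65% of goblet-like (3.22 to 6.47) and 0.303% of immune cells. *Gadd45a* was found in 9.27% of enterocyte-like cells (7.11 to 11.8), 1.92% of stem-like cells and 2.12% of immune cells (0.857 to 4.32). The share of stem-like cells with *Gadd45a* was thus no higher than that of immune cells. Of the 8 target genes, 3484 cells (71.25%) had no UMI, 1031 had UMIs of 1 gene and 270 of 2 genes.

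Barcodes with fewer than 100 counts, which hold mostly free RNA, gave a level for comparison from 234099 counts. *Cyr61* was at 51.3 CPM (26.5 to 89.5) and *Gadd45a* at 68.3 CPM (39.1 to 111) in them. *Yap1* was at 17.1 CPM from 4 counts and *Amotl2* at 0. The goblet-like (86.2 to 112) and stem-like levels (83.4 to 108) of *Cyr61* lay above that value, but their intervals overlapped its interval. The enterocyte-like level of *Gadd45a* (162 to 205) lay above the free RNA interval of that gene. Among the values below free RNA were *Cyr61* in enterocyte-like cells (47.5 CPM), stem-like cluster 4 (27.3 CPM) and immune cells (5.29 CPM). *Gadd45a* in stem-like cells (35.6 CPM) was below it too. Of these 3763 barcodes 2119 came from flox 2, and what part free RNA has in the levels of the classes was not tested.

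The genotype comparison set the YAP genes of the cells labelled knockout against those of the cells labelled flox. Counts were summed per biological replicate and the 2 knockout sums set against the 2 flox sums with edgeR's quasi-likelihood test. The labels do not say whether a biological replicate is 1 animal, so the p-values measure the spread between these sums, which includes the difference in sex. The main test had no term for sex. In fits with biological replicate as a block, which takes up that difference, 0 members passed too. In all kept cells 8 of the 10 members had enough counts to be tested, *Wwtr1* and *Lats2* not. None of the 8 passed (edgeR 0 higher, 0 lower and 0 at an unadjusted p under 0.05), and with DESeq2 none passed either. Over all genes, 1 of 10555 was called, or 0.00947%. Of the 8, 4 had higher and 4 lower values in knockout, with a median log2 fold change of 0.04 against 0.0019 over all genes. All adjusted p-values of the members were 0.9987 or more in the main tests.

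**Figure D3:**
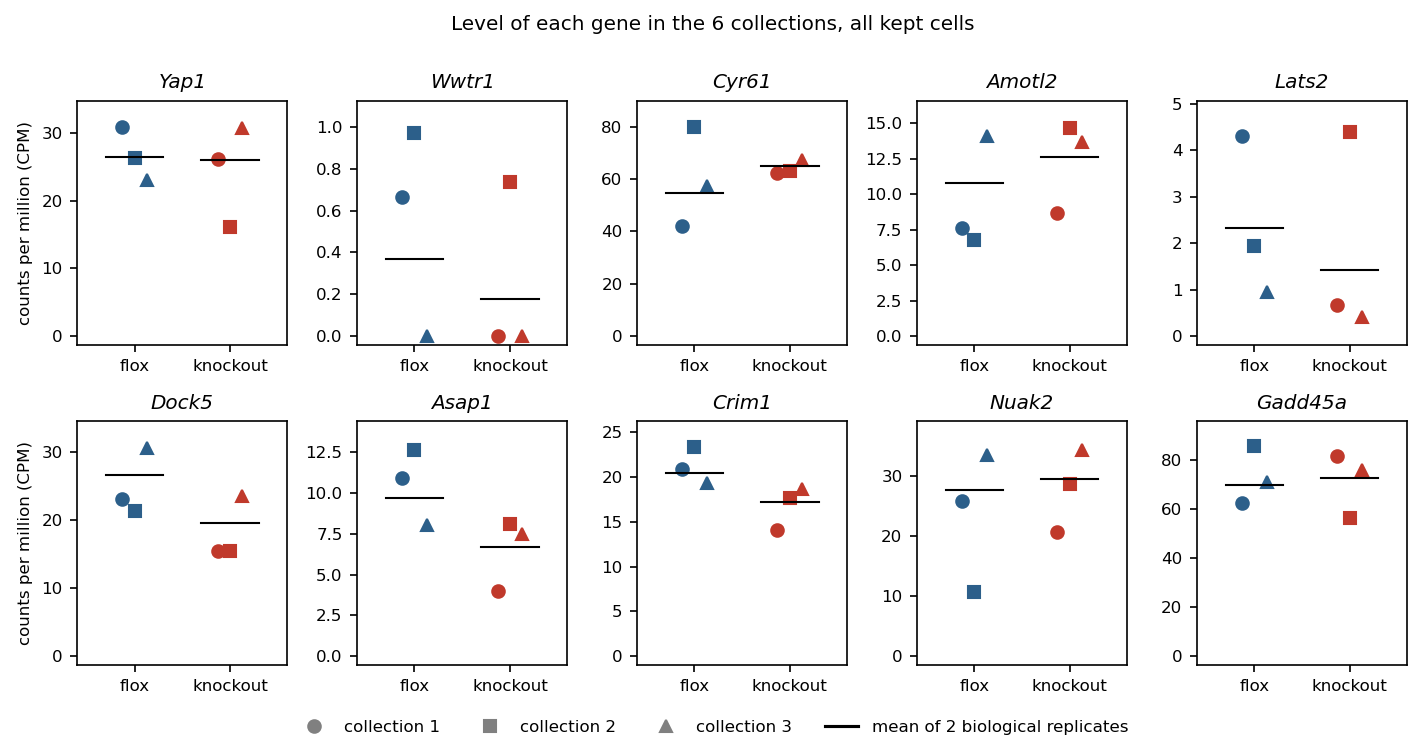
Level of each of the 10 genes in all kept cells (CPM, axes from 0) in flox (blue) and knockout (red) collections 1 to 3 (circle, square, triangle), with the mean of the 2 biological replicates as a bar. The genotypes overlap for every gene except *Crim1*, whose knockout collections (14.1 to 18.7 CPM) lie below the flox collections (19.3 to 23.3 CPM).

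*Yap1* read 26.1, 16.2 and 30.7 CPM in knockout 1 to 3 and 30.8, 26.3 and 23.1 CPM in flox 1 to 3. The mean was 26.0 ± 6.58 CPM in knockout and 26.4 ± 4.63 CPM in flox (SD, n = 2 biological replicates), and the collections overlapped. The log2 fold change was -0.0088 (SE 0.25), and its 95% interval of -0.56 to 0.54 sets the size of change that these data cannot show. *Wwtr1* and *Lats2* were at 0 to 0.972 CPM and 0.414 to 4.40 CPM over the 6 collections, and the genotypes overlapped.

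*Cyr61* read 62.3, 63.1 and 67.1 CPM in knockout and 42.1, 79.7 and 57.5 CPM in flox. The knockout collections lay close together inside the range of the flox collections. The means were 64.9 ± 3.14 and 54.6 ± 4.16 CPM (SD, n = 2), and the log2 fold change was 0.29 (SE 0.20, interval -0.13 to 0.71, edgeR adjusted p = 0.9996). Without flox collection 1 it was -0.06.

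*Gadd45a* had a log2 fold change of 0.10 (SE 0.19, interval -0.30 to 0.50), *Nuak2* 0.15 (SE 0.27) and *Amotl2* 0.32 (SE 0.38), each with overlapping collections. *Dock5* was at 15.4, 15.4 and 23.6 CPM in knockout and 23.2, 21.4 and 30.6 CPM in flox, with a log2 fold change of -0.40 (SE 0.28, interval -0.997 to 0.19, edgeR adjusted p = 0.9996). Its value was lower in knockout within biological replicate 1 (-0.46) and within biological replicate 2 (-0.37). *Asap1* had -0.53 (SE 0.40).

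*Crim1* was the 1 tested member whose collections did not overlap. It was at 14.1, 17.6 and 18.7 CPM in knockout and 20.9, 23.3 and 19.3 CPM in flox, all 3 knockout collections being below all 3 flox collections. Of all tested genes, 4.54% had this order in all kept cells and 2.47% the opposite one, which 0 members had, and the difference did not pass (log2 fold change -0.22, SE 0.26, interval -0.78 to 0.34, edgeR adjusted p = 0.9996). In epithelial cells *Crim1* had the same order (4.32% of tested genes, with 2.47% in the opposite order) with a log2 fold change of -0.22, and 0 of the 8 members tested there passed beside 0.00969% of all genes.

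**Figure D4:**
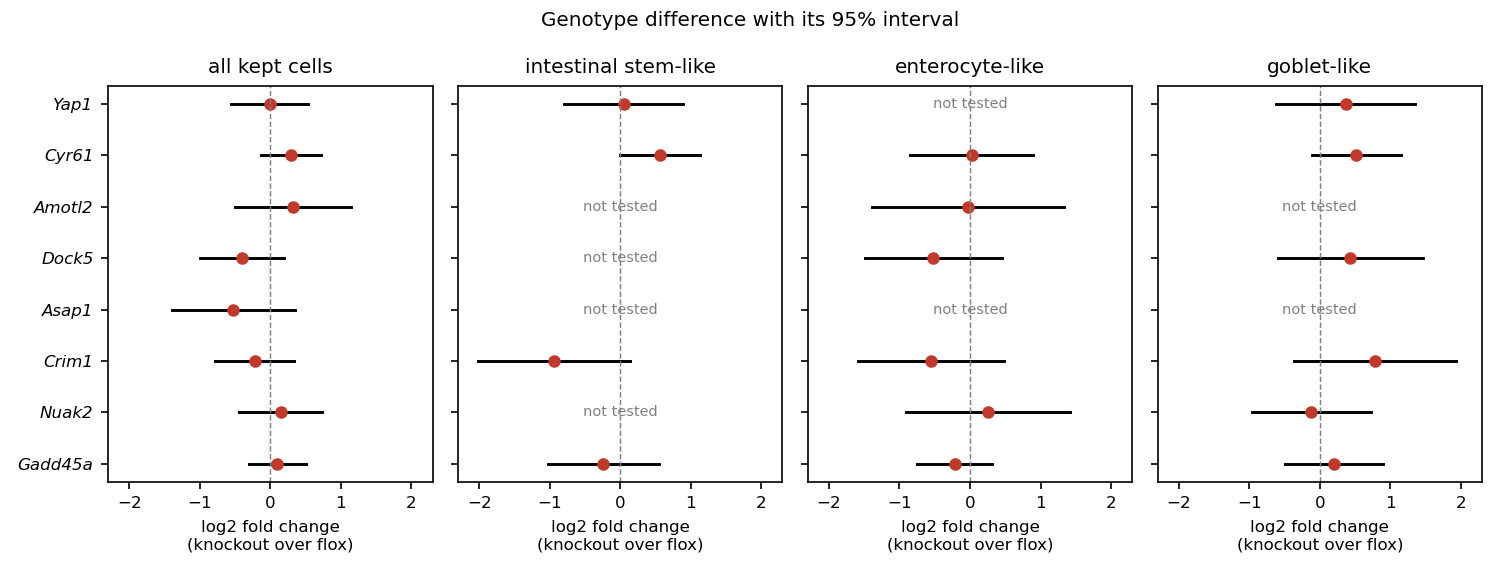
Log2 fold change of knockout over flox with its 95% interval for the 8 members tested in all kept cells, and for the members that could be tested in stem-like, enterocyte-like and goblet-like cells (edgeR, 2 biological replicates per genotype). Every interval includes 0, and the widest belong to the genes with few counts.

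Within classes the members could be tested in stem-like (4 members), enterocyte-like (6) and goblet-like cells (6), and 0 passed in each. The share of all tested genes called was 0.0324% in stem-like, 0.0202% in enterocyte-like and 0.0154% in goblet-like cells. In cycling-like cells 0 members had enough counts, where 0.0513% of tested genes were called. Goblet-like cells had higher knockout values for 5 of the 6 tested members, beside 49.6% of all genes tested there. The median log2 fold change was 0.40 over the 6 members and -0.003 over all genes tested there. Leaving out 1 collection or another changed the sign of *Cyr61*, *Dock5*, *Gadd45a*, *Yap1* and *Nuak2*, and only *Crim1* kept its sign.

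In stem-like cells *Cyr61* was at 128, 98.1 and 139 CPM in knockout 1 to 3 and 50.6, 99.1 and 126 CPM in flox 1 to 3. Flox 1 was the lowest collection and the others overlapped. The log2 fold change was 0.56 (SE 0.28, interval -0.0086 to 1.13), with an unadjusted edgeR p of 0.0535 and an adjusted p of 0.9999. It moved from 0.13 without flox 1 to 1.07 without flox 3. Within the first and the second set of collections that share barcodes it was 1.02 and -0.06. The fit without flox 3 left flox with 1 sum and without its *Xist*-high collection, so sex and genotype were partly mixed in it. In goblet-like cells the *Cyr61* value was 0.52 (SE 0.30), with 154, 84.8 and 115 CPM in knockout and 55.5, 221 and 64.0 CPM in flox, and -0.22 without flox 1. In enterocyte-like cells it was 0.02 (SE 0.42).

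*Crim1* in stem-like cells was at 9.62, 14.0 and 13.2 CPM in knockout and 24.1, 30.2 and 23.7 CPM in flox. All knockout collections were below all flox collections, as in 6.15% of the genes tested in this class, against 2.85% in the opposite order. The log2 fold change was -0.94 (SE 0.54, interval -2.02 to 0.13, edgeR adjusted p = 0.9999). The makeup of the class differed, with 74, 76 and 73 cells of cluster 2 and 91, 87 and 62 of cluster 4 in knockout, and 162, 45 and 112 against 82, 42 and 73 in flox. Within cluster 2 alone *Crim1* was at 10.7, 8.43 and 13.2 CPM in knockout and 27.0, 33.5 and 27.3 CPM in flox. These values rested on 2, 2 and 3 counts in knockout and 20, 6 and 8 in flox. The share of all genes with this order in cluster 2 was not computed, and the cluster was not tested by itself. In cluster 4, where *Crim1* had 7 counts in all, the collections overlapped, at 7.99, 25.1 and 13.3 CPM in knockout and 0, 18.9 and 11.5 CPM in flox.

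Enterocyte-like cells had *Crim1* at 28.4, 16.5 and 26.4 CPM in knockout and 37.4, 58.8 and 32.0 CPM in flox, again without overlap (5.28% of genes tested there, with 3.72% in the opposite order) and not past the test (log2 fold change -0.55, SE 0.50, edgeR adjusted p = 0.9987). In goblet-like cells 0 of the 6 tested members were without overlap (3.83% of genes below, 2.72% above), and the *Crim1* value had the other sign, 0.78 (SE 0.55). The difference between its genotype effects in goblet-like and stem-like cells was 1.62 (SE 0.77, edgeR adjusted p = 0.9999) and did not pass, with 0.0% of 7369 genes called. The other members that entered this comparison differed between the classes by -0.18 to 1.08, and none passed. The comparison has its own count filter, and *Nuak2* (-0.18) and *Dock5* (1.08) entered it without being tested in stem-like cells alone.

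*Gadd45a* in enterocyte-like cells was at 195, 138 and 162 CPM in knockout and 160, 294 and 211 CPM in flox. The genotypes overlapped, with flox 2 the highest collection (log2 fold change -0.22, SE 0.26, interval -0.75 to 0.31, edgeR adjusted p = 0.9987). In stem-like cells *Gadd45a* had -0.24 (SE 0.40) and in goblet-like cells 0.20 (SE 0.33).

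Among other genes of the pathway, in 4 lists, 0 passed the test in all kept cells. Of 19 Hippo kinases and scaffolds 14 were tested in all kept cells and 0 rose or fell, with a median log2 fold change of -0.03 against 0.0019 over all genes. The 3 with the highest CPM were *Taok3*, a kinase that activates MST (196 CPM, -0.04), *Limd1*, a LIM protein that binds LATS (97.7 CPM, -0.10), and *Taok1* (74.0 CPM, -0.06). *Limd1* had -0.64 (SE 0.31) in stem-like cells and did not pass there (edgeR adjusted p = 0.9999). Of 6 TEAD partners 3 were tested and 0 passed (median -0.19), with values of -0.19 for *Vgll4*, which competes with YAP for TEAD (84.7 CPM), -0.24 for *Tead1* (27.2 CPM) and -0.0008 for *Tead3* (10.8 CPM). *Tead1* read 21.4, 27.2 and 25.3 CPM in knockout and 28.5, 23.3 and 33.5 CPM in flox, with overlap. *Vgll4* read 73.7, 83.0 and 77.9 CPM in knockout and 86.4, 95.3 and 93.8 CPM in flox, without overlap. The Hippo kinase gene *Lats1* was also lower throughout, at 25.5, 26.4 and 30.3 CPM against 35.8, 33.1 and 37.2 CPM. Of all genes tested in all kept cells, 4.54% had this order and 2.47% the opposite one, which no list gene named here had.

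Of 14 other signature targets of YAP and TAZ only *F3*, encoding tissue factor, and *Myof*, encoding myoferlin, had enough counts. They were at 19.3 and 7.61 CPM, with log2 fold changes of 0.15 (SE 0.32) and 0.19 (SE 0.47). *Nt5e* came next at 1.92 CPM, *Axl* and *Ccdc80* had 0 counts in kept cells, and *Ctgf*, *Ankrd1* and *Foxf2*, like the TEAD partner *Vgll3*, are not analysed here. Of 8 growth and repair genes linked to YAP 4 were tested and 0 passed (median -0.15). The EGF receptor ligand gene *Areg* (358 CPM) had -0.47 (SE 0.23, edgeR adjusted p = 0.9996). *Areg* read 323, 255 and 320 CPM in knockout and 335, 345 and 531 CPM in flox, without overlap, an order that 4.54% of tested genes had. Its value was -0.66 among enterocyte-like cells (SE 0.19, edgeR adjusted p = 0.421), and it did not pass there. With biological replicate as a block, which takes up the difference in sex but is otherwise an unsettled pairing, the edgeR adjusted p was 0.0189. That fit called 36 genes higher and 3 lower of 4944 tested, against 1 called without the block. In all kept cells the fetal-like marker *Ly6a* (13.1 CPM) had 0.11 and the ligand gene *Ereg* (11.1 CPM) -0.37.

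The genes whose levels over the 9 classes ran most like those of a member were named from 5850 genes with at least 20 CPM, by Pearson's correlation of log2(CPM + 10). These are descriptions over 9 points that share libraries and differ in depth. For *Yap1* they were *Bdh1* (r = 0.989), *Clca1* (0.982) and *Hsd3b7* (0.982). For *Cyr61* they were *Evi5* (0.915), *Eif2s3x* (0.903) and *Prkci* (0.852), and for *Gadd45a* *Efcab14* (0.927), *Ppp3r1* (0.908) and *Lpp* (0.907). *Nuak2* was closest to *Kctd10* (0.955), *Aacs* (0.927) and *Bsdc1* (0.913). With only 4 counts, *Wwtr1* followed the stem-like class, and its nearest genes were *Cdca7* (0.828), *Olfm4* (0.814) and *Nelfe* (0.790).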

How the data were processed

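Drop-seq count tables of 6 collections, 3 per genotype, were used. The authors deposited whole-number counts per gene and cell barcode, without normalization. The submitters' processing notes name STAR 2.6 and the build mm10. Annotation, strand use and UMI settings are not stated there. Gene positions are from GENCODE M21 (GRCm38), which held 17963 of the 19178 symbols.

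Kept barcodes (at least 300 genes, at most 25% mitochondrial counts) were scaled to 10000 counts, log-transformed, and clustered without integration on 2000 variable genes, 30 principal components and 15 neighbours by the Leiden algorithm at resolution 1.0 (scanpy 1.11.5). Clusters were named from 14 marker lists on 3 or more markers with a 1.5-fold enrichment and detection in 10% of cells, if 2 were among the top 10 genes or 50% of the list was enriched. These naming thresholds were set with the data in view. Doublets were not called or removed. CPM are counts per 1000000 of a population's total.

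Counts summed per biological replicate were tested with edgeR 4.0.16 (quasi-likelihood, TMM, filterByExpr at a minimum count of 10, Benjamini-Hochberg over all tested genes, threshold 0.05), in classes with at least 20 cells in each sum. The difference between classes had the biological sum as a block. Alternatives were DESeq2 1.42.0, RLE factors, other filters, replicate blocks, left-out collections, other clusterings and the barcode-sharing sets, the last chosen after seeing the data. The procedure was tested on simulated data. The members and lists were chosen with earlier results of these data known. Named by rule were the members, *Ptger4*, list genes past the threshold, the 3 highest of each pathway list and the 3 most alike genes of 5 members. Genes leading a cluster, *Lats1*, and features singled out for a collection were named after their values were seen.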

Additional observations from a re-analysis of the deposited data

How the results depend on the processing

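In every fit run, 0 members passed the threshold, in 634 tests of members over all settings, 8 of which had an unadjusted edgeR or DESeq2 p under 0.05. Some of these fits took collections, not biological replicates, as samples. Of the recomputed genotype differences 515 kept their direction and 59 did not, and the cause was not tested. Values are log2 fold changes of knockout over flox. In all kept cells *Yap1* was 0.41 within biological replicate 2, 0.088 within the second barcode-sharing set (knockout 2, knockout 3, flox 3), 0.018 with the set as a term, 0.0039 at a limit of 10% mitochondrial counts, 0.025 without barcodes above 20000 counts and 0.019 without shared barcodes. *Amotl2* was -0.047 within biological replicate 2. *Gadd45a* was -0.0035 within biological replicate 1 and -0.074 within the second set, and *Nuak2* -0.055 within the second set. In epithelial cells the corresponding values were 0.40, 0.097, 0.0034, 0.0064 (without barcodes above 20000 counts) and 0.0035 (without shared barcodes) for *Yap1*, -0.050 for *Amotl2*, -0.014 and -0.082 for *Gadd45a* and -0.0046 for *Nuak2*. In enterocyte-like cells *Cyr61* was -0.86 within the first set and -0.18 with the set as a term. In goblet-like cells *Cyr61* was -0.088 and *Gadd45a* -0.41 within biological replicate 1, and *Nuak2* 0.13 within biological replicate 2. In stem-like cells *Cyr61* was -0.055 within the second set, and *Yap1* was -0.038 with collections as samples, -0.36 within biological replicate 1 and -0.42 within the first set.

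Collection numbers did not pair the samples, since same-numbered collections correlated at -0.11, 0.03 and 0.35 in their deviations from the group means. Between biological replicates the knockout and flox differences correlated at 0.32 across genes, from 2 pairs only. Sex goes with the biological replicate in both genotypes, so a replicate block takes up sex, but a further pairing is not settled. With biological replicate as a block *Cyr61* in enterocyte-like cells was -0.022, and with collection number as a block -0.033. In stem-like cells *Yap1* was -0.029 with collection number as a block. The biological replicate block called 3 genes of all tested in all kept cells, 2 in epithelial, 3 in cycling-like, 39 in enterocyte-like and 4 in stem-like cells. In enterocyte-like cells it put *Areg* past the threshold (log2 fold change -0.65, edgeR adjusted p = 0.0189). The collection block called 13 genes in enterocyte-like and 1 in stem-like cells.

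Without the filter on low counts, all genes called numbered 35 in all kept cells, 30 in epithelial, 2 in cycling-like, 16 in enterocyte-like and 13 in stem-like cells. Within biological replicate 1 they were 11 (all kept), 11 (epithelial), 2 (cycling-like), 2 (enterocyte-like), 2 (goblet-like) and 1 (stem-like). Within the first set they were 22 (all kept), 18 (epithelial), 3 (enterocyte-like), 3 (goblet-like) and 1 (stem-like), and within the second set 12 (all kept), 33 (epithelial), 0 (cycling-like, edgeR), 22 (enterocyte-like), 16 (goblet-like) and 6 (stem-like). Collections as samples called 5 in enterocyte-like and 1 in stem-like cells, a limit of 10% mitochondrial counts 2 in epithelial cells, DESeq2 1 and the set as a term 1 in stem-like cells. The fits within biological replicate 1, within or with the sets, and on collections as samples took collections as replicates. Repeat collections of 1 biological replicate are not independent, so these calls are not results over biological replicates.

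Leaving out 1 collection at a time moved *Yap1* from -0.25 to 0.15, *Cyr61* from -0.060 to 0.44, *Gadd45a* from -0.10 to 0.22 and *Nuak2* from -0.085 to 0.47 in all kept cells. In epithelial cells the ranges were -0.25 to 0.14, -0.085 to 0.45, -0.13 to 0.22 and -0.068 to 0.46. In enterocyte-like cells *Amotl2* ran from -0.67 to 0.67, *Cyr61* from -0.49 to 0.28 and *Nuak2* from -0.18 to 0.14. The *Nuak2* range does not include its main value of 0.25. Some of these fits had enough counts for only 5 members, against 6 in the main fit, so a range need not cover every left-out collection. In goblet-like cells *Cyr61* ran from -0.22 to 0.99, *Dock5* from -0.12 to 0.71, *Gadd45a* from -0.083 to 0.59, *Nuak2* from -0.62 to 0.11 and *Yap1* from -0.022 to 0.74, and in stem-like cells *Yap1* from -0.33 to 0.20. Without a change of sign, *Amotl2* ran from 0.18 to 0.82, *Dock5* from -0.71 to -0.18 and *Asap1* from -0.71 to -0.32 in all kept cells, *Crim1* from 0.43 to 1.28 in goblet-like cells, and in enterocyte-like cells *Dock5* from -0.78 to -0.11 and *Gadd45a* from -0.53 to -0.10. Where an arm was left with 1 sum, it was assumed to vary like the other. All genes called then numbered 1 to 33 in all kept, 1 to 65 in epithelial, 0 to 8 in cycling-like, 1 to 18 in enterocyte-like, from 0 to 6 among goblet-like and from 1 to 13 among stem-like cells. Of the levels by class, 799 recomputed values moved by less than the spread between collections and 11 by more. Many of these values left out 1 of the same collections that set the spread. Such values could hardly move beyond it, so the count says little about stability. Depth limits *Wwtr1* and *Lats2* in every population and most members in the classes with under 120 cells. With other clusterings the class with the highest level changed for *Yap1* (tuft-like to stem-like), *Cyr61* (goblet-like to stem-like) and *Amotl2* (enterocyte-like to enteroendocrine-like) and stayed for the other 7.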
